A study of Mus musculus with 3 samples.

Results

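The collagen genes of the adult mouse heart were followed on 3 two-colour Agilent whole mouse genome arrays, in both channels. Members were all gene probes whose array gene name starts with Col, a number, the letter a and a further number. The rule took 40 of the 28090 gene names on the array, with 82 of its 41174 gene probes. Of these, 78 probes belonged to 39 collagen genes, and 4 probes belonged to Col4a3bp, the ceramide transfer protein now named Cert1, which is no collagen chain and was kept out of every median; its brightest probe had log2 ratios of 0.25, 0.46 and 0.04. The fibrillar collagens had 26 probes of 11 genes, the basement membrane collagens 17 probes of 8 genes and the other collagens 35 probes of 20 genes. A further 4 probes of collagen genes carry older names on the array (1110001D15Rik for Col6a4, E330026B02Rik for Col6a6, Emid2 for Col26a1) and lay outside the rule.

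Each array compared RNA pooled from 2 hearts labelled Lrrc10-/- with Cy5 and RNA pooled from 2 hearts labelled Lrrc10+/+ (WT) with Cy3, from C57/BL6 mice at 2 months of age, with no dye swap. LRRC10 is a cardiac leucine-rich repeat protein, and the study describes dilated cardiomyopathy in mice that lack it from the germline. The 3 arrays (replicates 1 to 3) were independent biological replicates by the study's methods, but the labels call the WT channel a reference pool, which leaves unstated whether a single WT pool served all arrays. Were it a single pool, the test would hold no error of the WT side.

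Collagens are secreted proteins of 3 chains that wind into a triple helix, which requires glycine as the leading residue of each Gly-X-Y triplet. Fibrillar collagens such as types I and III form the cables of the cardiac interstitium that carry tensile load between myocytes, type V chains control the width of these fibrils, and type IV chains build the sheet-like basement membrane around myocytes and capillaries. In the heart, fibroblasts make most of the fibrillar collagen, and endothelial and mural cells contribute to the basement membrane. In pooled tissue RNA, fewer cells of a type and less RNA per cell cannot be told apart.

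Each member was measured with probes of 60 bases, and 3 of the 82 probes read through at least 5 consecutive Gly-X-Y triplets, so they lie in the sequence that codes for the triple helix. They are shown because they carry the repeat that defines the family, with the glycine codons of the complete Gly-X-Y triplets of the run in capitals and all other bases in lower case.
Col11a2: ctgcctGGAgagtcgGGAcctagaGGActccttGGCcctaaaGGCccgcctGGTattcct
Col5a1: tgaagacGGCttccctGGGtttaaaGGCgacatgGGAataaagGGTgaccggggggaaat
Col5a3: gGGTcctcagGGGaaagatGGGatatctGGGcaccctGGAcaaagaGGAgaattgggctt
These 3 probes were all dim, with the Col11a2 probe at 44.2 to 58.3, the Col5a1 probe at 36.2 to 87.9 and the Col5a3 probe at 14.3 to 38.8 units of processed signal over both channels. The genomic positions of the probes are not given in the sources used here.

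The ratio used throughout is Cy5 over Cy3 on the log2 scale, so a positive value means a brighter signal in the channel labelled Lrrc10-/-. The Lrrc10 probe itself went against the labels, with Cy3 signals of 476, 443 and 352 and Cy5 signals of 14283, 20828 and 17703 on replicates 1, 2 and 3. Its mean log2 ratio was 5.37 ± 0.41 (SD, n = 3), with an adjusted p of 0.000262 by limma. Whether this probe lies in the deleted part is not given in the sources used here. The natriuretic peptide gene Nppa, which the study describes as raised in mice without LRRC10, was brighter in the Cy3 channel on every array, so the direction here opposes that of the study. All values are therefore given by channel, and with the channels exchanged each sign would turn. The ratios of the arrays were almost unrelated across 29606 tested probes, with Pearson's r of 0.0964 between replicates 1 and 2, -0.0371 between 1 and 3 and -0.184 between 2 and 3, a description across probes, which are not independent. The arrays lay on a single slide and were scanned together, so neither could be compared as a batch.

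Of the 78 collagen probes, 52 probes of 33 genes reached the minimum mean processed signal of 20 and were tested, and 45 of these, of 31 genes, were well above background in both channels on every array. No tested collagen probe was saturated. Col10a1, Col12a1, Col24a1, Col28a1, Col6a3 and Col9a1 had no probe above the minimum. Among the probes left out, a Col24a1 probe stood at 7.10, 185 and 5.67 in Cy5 and at 7.38, 8.02 and 5.15 in Cy3, a signal on a single array in a single channel.

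Across the 3 arrays no collagen gene was called between the channels. With limma, 0 of 52 probes passed an adjusted p of 0.05 in either direction, where 0.00676% of all tested probes were called brighter in Cy5 and 0% brighter in Cy3. At an unadjusted p under 0.05, 0 collagen probes were brighter in Cy5 (1.55% of all tested probes) and 2 were brighter in Cy3 (1.52%), which were the brightest probes of Col5a3 and Col27a1, and the methods' t-test also called 0 after adjustment. A 1.2-fold selection modelled on that of the study was also applied. It required a change of at least 1.2-fold the same way with an array p under 0.05 on every array; the study's own p came from its analysis software. It took 0 collagen probes in either direction, against 0.405% of all tested probes brighter in Cy5 and 0.51% brighter in Cy3. With the p of limma in place of the array p it took Col27a1, brighter in Cy3, where 330 of the 29606 tested probes were taken. Leaving out replicate 3 alone gave 1 limma call in each direction, Col9a3 brighter in Cy5 and Col5a3 brighter in Cy3, at a setting where 411 and 134 probes of the whole array were called.

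Within an array most collagens lay on the same side of 0, and the side differed between arrays. The median log2 ratio of the 33 collagen genes, each by its brightest probe, was 0.29 on replicate 1, -0.67 on replicate 2 and -0.20 on replicate 3. The median of all tested probes stayed close to 0, at 0.0046, 0.0063 and -0.0071. Above 0 were 27 of 33 collagen genes on replicate 1, 9 on replicate 2 and 8 on replicate 3. The median of the mean ratios was -0.17, and it was 0.01 without replicate 2. The mean ratio was below 0 for 24 of the 33 genes, and 17 of these 24 turned above 0 with normexp and median centring, 11 of them interstitial or vascular genes (0.14 for Col1a1, 0.18 for Col4a1 and 0.22 for Col4a2), so the signs of means given for single genes hold for the deposited ratios. In that setting the median of means over all tested probes was itself 0.16, so a mean above 0 there can still lie below that median.

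In the deposited ratios the medians of all 3 classes were above 0 on replicate 1 and below 0 on replicates 2 and 3. The fibrillar median was 0.37, -0.77 and -0.24 on replicates 1, 2 and 3. The basement membrane median was 0.26, -0.72 and -0.07. The other collagens were at 0.24, -0.47 and -0.30. The fibrillar median minus the basement membrane median was 0.10, -0.05 and -0.17, so in the deposited ratios the order of these classes was not the same on every array. The SD of this gap between arrays was 0.14, and the gap of replicate 3 was larger than that. The class medians themselves had SDs of 0.57 (fibrillar) and 0.50 (basement membrane) between arrays. The gap was below 0 on every array with normexp and loess (-0.03, -0.13 and -0.13) and with median centring (-0.02, -0.11 and -0.29). On replicate 2 the medians of fibrillar, basement membrane and other collagens were -0.54, -0.41 and -0.07 with loess, and -0.27, -0.16 and -0.00098 with median centring, where all tested probes had 0.105. The low value of the other collagens there thus depended on the processing. Both settings also changed the background correction to normexp with an offset of 50. The dim Col8a2 went from -1.08 to -0.07 with loess and the brighter Col16a1 from -0.95 to -0.87. The part of each step was not tested. Type IV chains taken alone had medians of 0.20, -0.56 and -0.07.

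**Figure D1:**
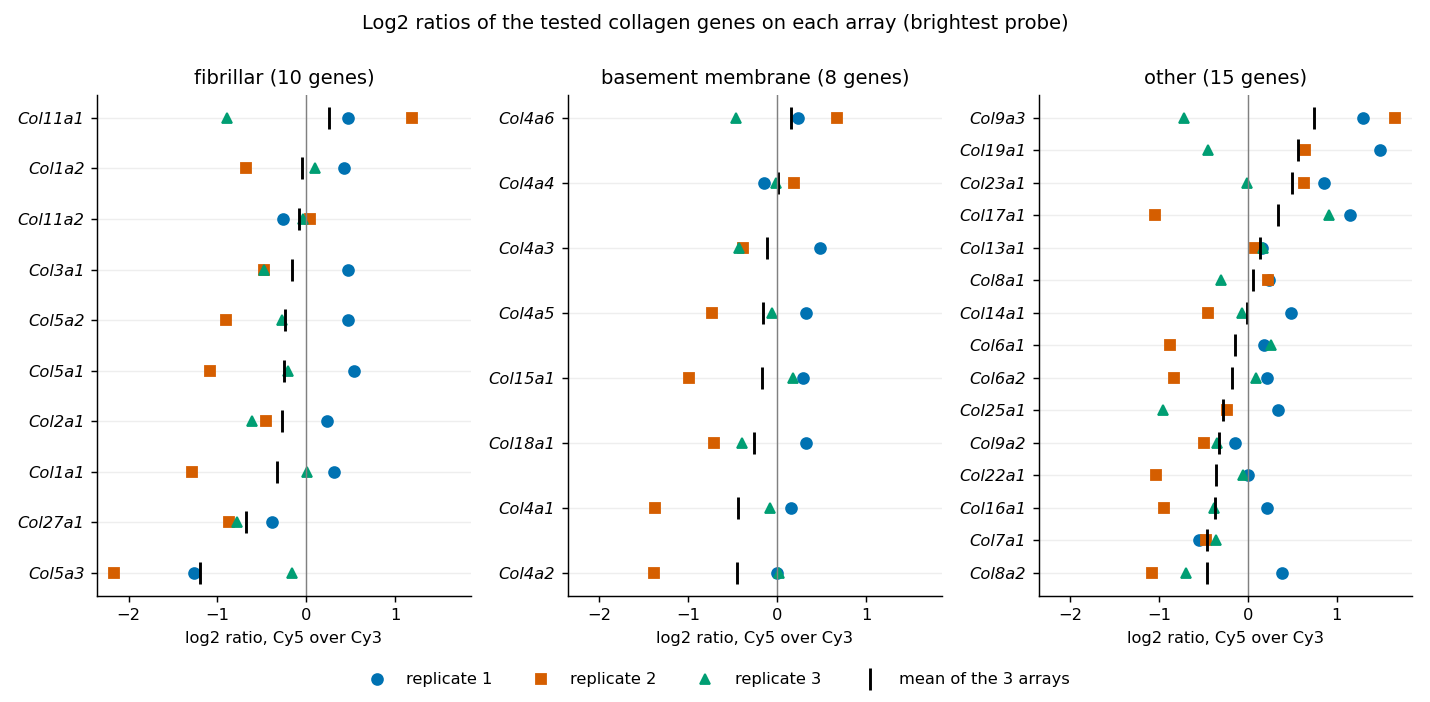
Log2 ratio (Cy5 over Cy3) of each of the 33 tested collagen genes on the x axis, by its brightest probe, with a circle, square and triangle for replicates 1, 2 and 3 and a bar for their mean. Most circles lie right of 0 and most squares left of it: 27 of 33 genes were above 0 on replicate 1 and 9 on replicate 2.

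Col1a1 and Col1a2 encode the 2 chains of type I collagen, the main fibre of the cardiac interstitium. The brightest Col1a1 probe gave Cy3 signals of 4947, 15403 and 5816 and Cy5 signals of 6120, 6297 and 5858 on replicates 1, 2 and 3. The Cy5 signals of Col1a1 thus lay close together, and the Cy3 signal of replicate 2 stood far above the rest. Its log2 ratios were 0.31, -1.29 and 0.01, with a mean of -0.32 ± 0.85 (SD, n = 3). Col1a2 had Cy3 signals of 6606, 17803 and 8158 and Cy5 signals of 8875, 11159 and 8715. Its ratios of 0.43, -0.67 and 0.10 ran the same way as those of Col1a1 and averaged -0.05 ± 0.56 (SD, n = 3).

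Col3a1, the type III chain that shares fibrils with type I, had Cy3 signals of 11641, 28139 and 23166 and Cy5 signals of 16094, 20283 and 16713. Here replicate 3 also had the higher Cy3 signal, with ratios of 0.47, -0.47 and -0.47. Col5a1 and Col5a2, the main chains of type V, had ratios of 0.53, -1.08 and -0.20 and of 0.47, -0.91 and -0.27. Their Cy3 signals were highest on replicate 2, at 4452 for Col5a1 against 1536 and 2186, and at 1161 for Col5a2 against 411 and 631. Each of these 5 genes was brighter in Cy5 on replicate 1 and brighter in Cy3 on replicate 2, and limma's adjusted p rounded to 1.0 for each.

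Col5a3, the less common type V chain, had the mean ratio furthest from 0 among the tested fibrillar genes. Its brightest probe gave Cy3 signals of 3972, 8221 and 2629 and Cy5 signals of 1655, 1837 and 2354. All Cy5 signals of Col5a3 lay below all its Cy3 signals. The log2 ratios were -1.26, -2.16 and -0.16, with a mean of -1.19 ± 1.00 (SD, n = 3) and an unadjusted p of 0.00842 by limma. Without replicate 3 the mean was -1.71 and limma called it. Its second tested probe, the Gly-X-Y probe printed above, gave -0.23, -0.66 and 0.27 and was not well above background in every channel.

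Col4a1 and Col4a2 encode the chains of the common type IV network, and their RefSeq promoter windows overlap by 78 bases on opposite strands. Col4a1 had Cy3 signals of 4081, 11629 and 5535 and Cy5 signals of 4536, 4486 and 5227. Col4a2 had Cy3 signals of 3581, 11326 and 3898 and Cy5 signals of 3589, 4348 and 3946. The ratios of the pair ran in parallel, at 0.15, -1.37 and -0.08 for Col4a1 and 0.0031, -1.38 and 0.02 for Col4a2, and both genes had their highest Cy3 signal on replicate 2. Means were -0.43 ± 0.82 and -0.45 ± 0.80 (SD, n = 3).

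The remaining type IV chains, of more restricted basement membranes, did not all share this course. Col4a5 had ratios of 0.33, -0.74 and -0.06, and Col4a3 had 0.49, -0.38 and -0.43. Col4a4 was near equality at -0.14, 0.19 and -0.02. Col4a6 was at 0.24, 0.68 and -0.46 by its brightest probe, but at 1.27, -0.58 and 0.85 by its second tested probe, which was not well above background in every channel. Col15a1 and Col18a1, basement membrane proteoglycan collagens of vessels, again had their lowest ratio on replicate 2, with 0.29, -0.99 and 0.18 for Col15a1 and 0.32, -0.71 and -0.40 for Col18a1.

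Col6a1 and Col6a2 form beaded filaments between fibrils and basement membrane. Col6a1 had Cy3 signals of 1148, 2726 and 985 and Cy5 signals of 1301, 1479 and 1178, for ratios of 0.18, -0.88 and 0.26. Col6a2 had ratios of 0.21, -0.83 and 0.09, close to those of Col6a1 on every array. Col14a1, a fibril-associated collagen, had ratios of 0.49, -0.45 and -0.06. Col16a1, of the same group, had 0.22, -0.95 and -0.38, with a Cy3 signal of 2964 on replicate 2 against 1024 and 1100.

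Col8a1, a short-chain network collagen of vessel walls, did not share the drop on replicate 2. Its Cy3 signals were 4381, 6422 and 5287 and its Cy5 signals 5168, 7529 and 4280. Both were highest on replicate 2 before any scaling between arrays. Set against the median of all tested probes on the log2 scale, Cy3 was highest on replicate 3 (3.39, 3.56 and 3.84). Its ratios were 0.24, 0.23 and -0.30, and a second probe gave 0.45, 0.26 and -0.21. Col8a2, the partner chain, had 0.39, -1.08 and -0.69. Above 0 on replicate 2 were 9 genes, which besides Col8a1, Col4a6, Col4a4, Col13a1 and Col11a2 (0.05 there) were Col9a3 (1.30, 1.66, -0.71), Col11a1 (0.47, 1.19, -0.90), Col19a1 (1.49, 0.64, -0.45) and Col23a1 (0.86, 0.63, -0.01), named here after their values were seen, of which the Col19a1 probe was not well above background in every channel. Each of the last 4, like Col4a6, was brighter in Cy5 on replicates 1 and 2 and brighter in Cy3 on replicate 3 by its brightest probe, but the second tested Col23a1 probe was at -0.77 on replicate 2. Col9a3, a fibril-associated chain known from cartilage, had Cy5 signals of 289, 264 and 135 and Cy3 signals of 117, 83.6 and 221.

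Only 6 of the 52 tested collagen probes kept their sign on every array. Of these, 1 was brighter in Cy5 (9.99% of all tested probes) and 5 were brighter in Cy3 (11% of all tested probes). The Cy5 probe was Col13a1, a transmembrane collagen, at 0.16, 0.08 and 0.17. The Cy3 probes were those of Col5a3, Col27a1 (-0.38, -0.86, -0.78), Col7a1 (-0.55, -0.47, -0.36), Col9a2 (-0.14, -0.50, -0.34) and a second Col4a3 probe. Col27a1, a fibrillar collagen of developing cartilage, averaged -0.67 ± 0.26 (SD, n = 3) with an unadjusted p of 0.0393 by limma. Its mean was -0.17 with loess and -0.19 with median centring, and its second tested probe gave -0.74, 0.18 and -0.21. Col7a1, the anchoring fibril collagen of skin, averaged -0.46 ± 0.09 (SD, n = 3), but its mean turned to 0.03 under normexp with median centring, and that of Col9a2 turned from -0.33 to 0.12. Both values lay below the median of means over all tested probes in that setting, 0.16.

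The signals of each channel were then set against the median of all tested probes in that channel and array, a step chosen after the ratios had been seen. In Cy3, the 13 tested genes of the interstitial and vascular collagens (Col1a1, Col1a2, Col3a1, Col5a1, Col5a2, Col4a1, Col4a2, Col6a1, Col6a2, Col8a1, Col14a1, Col15a1 and Col18a1) were higher on replicate 2 than the mean of replicates 1 and 3 by a median of 0.81 on the log2 scale. In Cy5 the same difference was -0.22. Highest on replicate 2 were 11 of the 13 genes in Cy3 and 2 of 13 in Cy5, where 37.1% and 27.7% of all tested probes were, and the exceptions in Cy3 were Col3a1 and Col8a1, which were highest on replicate 3. For all tested probes these differences were 0.01 and -0.01.

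Over all 33 collagen genes the Cy3 difference was 0.53 and the Cy5 difference -0.26, and 18 genes were highest on replicate 2 in Cy3 (54.5%, against the 37.1% of all tested probes). By class the Cy3 and Cy5 differences were 0.52 and -0.33 for fibrillar, 0.63 and -0.26 for basement membrane and -0.05 and -0.19 for other collagens. Within the interstitial and vascular genes the Cy3 difference was 1.05 for Col1a1, 1.13 for Col4a2, 0.89 for Col6a1 and 0.31 for Col3a1. Over the 13 genes, the median difference of replicate 1 from replicate 3 was -0.45 in Cy3 and -0.05 in Cy5. For these 13 genes both median differences were larger in the channel labelled Lrrc10+/+ than in the channel labelled Lrrc10-/-, whereas for the other collagens the difference of replicate 2 was not. Processed signals are not normalized between arrays, and this contrast between channels was not tested. Other lists were also higher in Cy3 on replicate 2, with median differences of 0.54 for collagen receptors, 0.50 for endothelial markers, 0.42 for smooth muscle and pericyte markers and 0.34 for collagen biosynthesis and secretion, against 0.11 for fibroblast markers. In Cy5 these differences were 0.02, 0.13, -0.16, -0.06 and 0.12. Below 0 in Cy3 were fibril-binding proteoglycans (-0.30), red blood cell markers (-0.19), skeletal muscle markers (-0.10) and procollagen processing and cross-linking (-0.01). In Cy5 those lists were at 0.19, 0.25, -0.06 and -0.31. The part of any of these lists in the collagen pattern was not tested.

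**Figure D2:**
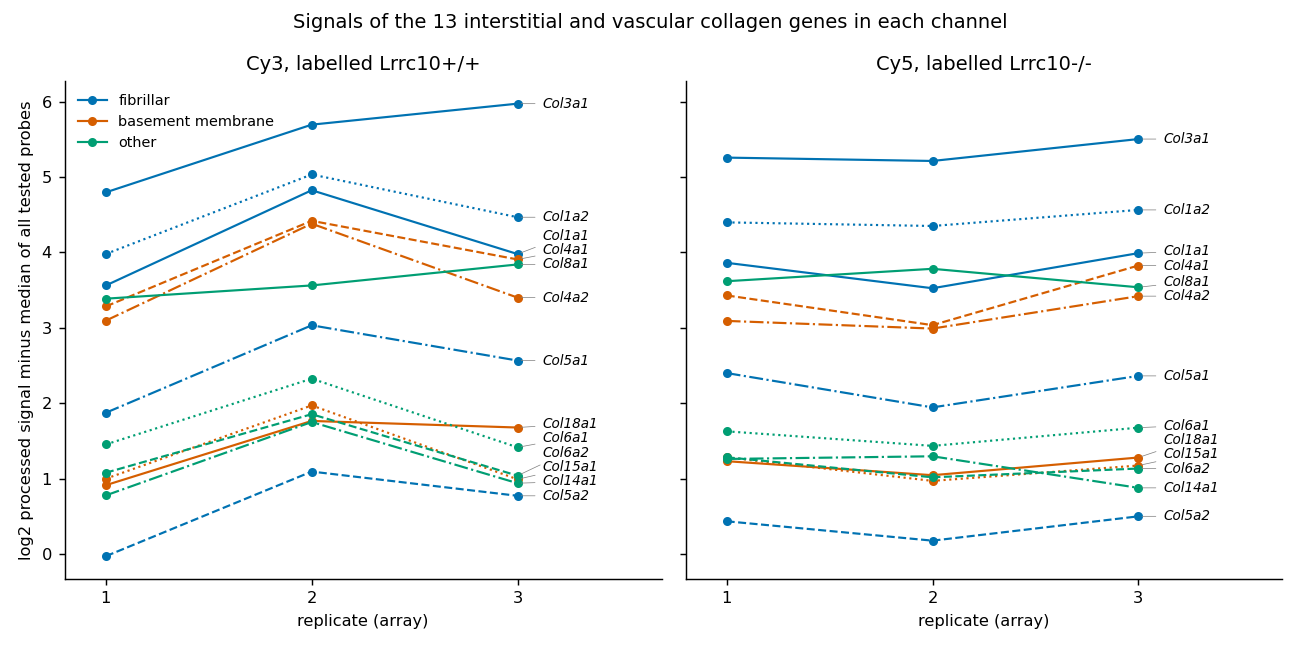
Log2 processed signal minus the median of all tested probes of that channel and array (y axis) on each array (x axis) for the 13 interstitial and vascular collagen genes, Cy3 left and Cy5 right, with 1 line per gene coloured by class. In Cy3, 11 of 13 genes peak on replicate 2; in Cy5, 2 of 13 do.

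On single arrays, many collagen probes differed between the channels by the array's own p, which covers the error of a spot and not that between hearts. On replicate 2, 34 of 52 collagen probes (65.4%) were brighter in Cy3 at an array p under 0.05, where 18.6% of all tested probes were, and 5 (9.62%) were brighter in Cy5, where 19% of all tested probes were. Basement membrane collagens gave 12 of 15 tested probes of that kind in Cy3, fibrillar collagens 11 of 18 and other collagens 11 of 19. Of the 45 probes well above background throughout, 30 were brighter in Cy3. On replicate 1 the balance was on the other side, with 13 probes (25%) brighter in Cy5 and 5 (9.62%) brighter in Cy3, against 12.2% and 13% of all tested probes. On replicate 3 the shares of 13.5% in Cy5 and 15.4% in Cy3 lay near the background of 14.9% and 13.7%.

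**Figure D3:**
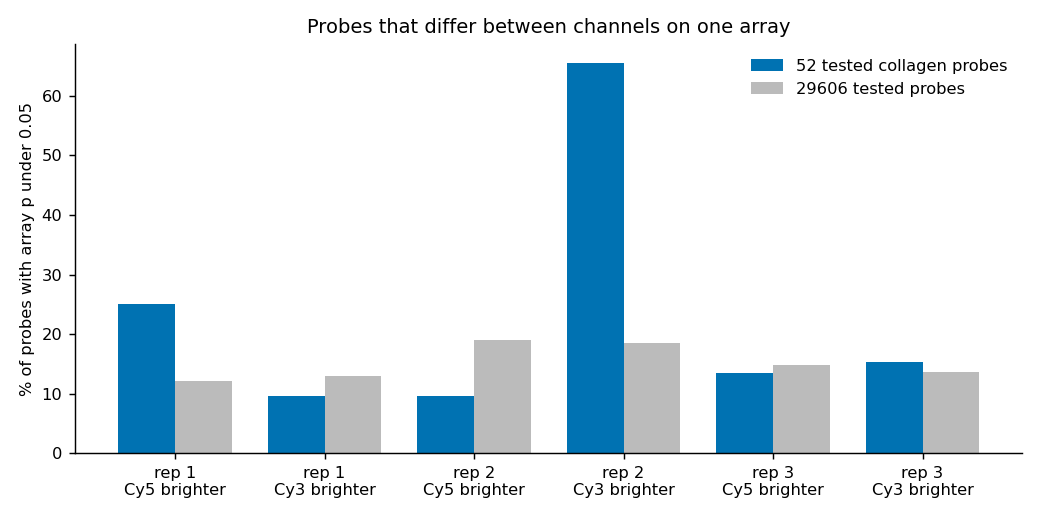
Percent of probes with an array p under 0.05 (y axis) for each array and brighter channel (x axis), for the 52 tested collagen probes in blue and the 29606 tested probes in grey. The blue bar of 65.4% for replicate 2, Cy3 brighter, stands against a grey bar of 18.6%.

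Repeated spots show how well an array fixed a ratio. The Col1a1 probe was printed 10 times per array, and its spots ranged from 0.27 to 0.36 on replicate 1, from -1.34 to -1.26 on replicate 2 and from -0.05 to 0.11 on replicate 3. The SD between spots was 0.03, 0.02 and 0.05, and the SD between the array means was 0.85. A Col2a1 probe with 10 spots had SDs of 0.05, 0.04 and 0.05 between spots and 0.45 between arrays. The spread of spots covers the error between the spots of a single array alone. That between arrays also holds differences of labelling, dye and hybridization and those between heart pools, which cannot be told apart here.

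Separate probes of a gene gave a further check. Of the 18 genes with several tested probes, all probes had the same sign in 13 genes on replicate 1, 11 on replicate 2 and 8 on replicate 3. The second probe of Col1a1 gave 0.48, -1.23 and 0.50, that of Col4a1 0.30, -1.17 and 0.47, that of Col4a2 -0.04, -1.16 and 0.53, and that of Col6a2 0.19, -1.05 and -0.37, so the low ratio on replicate 2 was shared while replicate 3 was not. The sign of the mean disagreed between probes in 4 genes. Col25a1, a transmembrane collagen, was at 0.34, -0.23 and -0.95 by its brightest probe and at -0.78, 0.70 and 0.61 by another. Col11a2, Col23a1 and Col4a4 had means of -0.08 and 0.07, 0.49 and -0.19, and 0.01 and -0.23.

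Even overlapping probes could differ. The 2 tested probes of Col2a1, the cartilage collagen, share 40 bases, printed in capitals, and are shown because they read the same stretch of transcript shifted by the bases in lower case.
Probe with 1 spot: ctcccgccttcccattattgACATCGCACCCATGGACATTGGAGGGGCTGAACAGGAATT
Probe with 10 spots: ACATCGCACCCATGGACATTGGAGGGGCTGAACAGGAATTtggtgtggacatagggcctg
The probe with 10 spots had Cy3 signals of 2053, 4479 and 3813 and Cy5 signals of 2419, 3263 and 2495, for ratios of 0.24, -0.46 and -0.61. The probe with 1 spot had Cy3 signals of 1040, 584 and 818 and Cy5 signals of 688, 705 and 651, for ratios of -0.60, 0.27 and -0.33. They disagreed in sign on replicates 1 and 2.

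Since 12 of the 13 interstitial and vascular genes were below 0 on replicate 2, the upstream sequences of 3 of them are shown beside that of Col8a1, which did not share the drop. They are the 250 bases before the RefSeq start on GRCm38.p6, read 5′ to 3′ on the strand of the gene. Matches to CCAAT, to TATAAA and to the GC box GGGCGG, on the printed strand or its complement, are in capitals.
Col1a2, chr6:4505368-4505617, plus strand: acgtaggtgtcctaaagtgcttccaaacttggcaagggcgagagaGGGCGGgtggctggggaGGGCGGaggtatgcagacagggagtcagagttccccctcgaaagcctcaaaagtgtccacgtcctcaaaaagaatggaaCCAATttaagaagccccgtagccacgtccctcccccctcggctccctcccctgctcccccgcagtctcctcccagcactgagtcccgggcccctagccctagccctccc
Col3a1, chr1:45311288-45311537, plus strand: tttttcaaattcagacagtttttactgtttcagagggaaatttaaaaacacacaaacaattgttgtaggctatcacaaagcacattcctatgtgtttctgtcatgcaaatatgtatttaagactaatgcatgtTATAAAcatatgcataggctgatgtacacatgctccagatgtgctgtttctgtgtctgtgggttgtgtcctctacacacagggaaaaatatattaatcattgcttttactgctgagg
Col6a1, chr10:76726045-76726294, minus strand: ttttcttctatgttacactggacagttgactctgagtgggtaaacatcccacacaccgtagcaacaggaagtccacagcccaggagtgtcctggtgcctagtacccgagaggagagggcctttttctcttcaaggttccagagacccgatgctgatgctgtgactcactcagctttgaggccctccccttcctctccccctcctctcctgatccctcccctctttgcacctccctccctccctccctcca
Col8a1, chr16:57754738-57754987, minus strand: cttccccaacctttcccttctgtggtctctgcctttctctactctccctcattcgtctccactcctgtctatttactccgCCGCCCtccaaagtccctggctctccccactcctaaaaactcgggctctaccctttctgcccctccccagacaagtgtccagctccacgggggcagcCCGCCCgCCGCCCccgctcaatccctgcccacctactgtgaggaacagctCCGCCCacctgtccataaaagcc
The Col1a2 window held 1 CCAAT and 2 GGGCGG, the Col3a1 window 1 TATAAA, the Col8a1 window 4 copies of GGGCGG in the other orientation, and none of these letters were found in the Col6a1 window. The windows of Col1a2, Col3a1 and Col6a1 had none of the 3 motifs in common. The genes were set apart by their ratios on replicate 2, and any link of these letters to the ratios was not tested. Of 32851 upstream windows in the table, 33.8% held CCAAT, 12.4% TATAAA and 32.7% GGGCGG, and of the windows of 31 collagen genes 35.5%, 16.1% and 58.1% did. A match is a description of the letters and not a site.

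The genes that make, process, bind and degrade collagen were read from lists, by the brightest tested probe of each gene. No gene of these lists passed limma at an adjusted p of 0.05 in either direction. Among 17 tested genes of collagen biosynthesis and secretion, 0 passed at an unadjusted p under 0.05, with medians of 0.10, -0.28 and 0.16 and 14 of 17 below 0 on replicate 2. Serpinh1, the collagen chaperone HSP47, was at 0.19, -0.41 and 0.06. Fkbp10, a prolyl isomerase of procollagen, was at 0.11, -0.95 and -0.14. The medians of this list had the signs of the collagens on replicates 1 and 2, but that of replicate 1 turned to -0.12 with normexp and loess and that of replicate 2 to 0.05 with median centring. All tested probes had a median of 0.105 on replicate 2 with median centring, so the list stayed below it.

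Procollagen processing and cross-linking enzymes (12 tested, 0 at an unadjusted p under 0.05) had medians of 0.32, -0.45 and -0.23, and the median of replicate 2 was -0.07 with loess and 0.03 with median centring. Collagen receptors (8 tested, 0 at that p) had 0.24, -0.31 and -0.07, and on replicate 2 -0.06 with loess and 0.07 with median centring, with the collagen-binding integrin subunit Itga11 at 0.14, -1.11 and 0.15. With median centring the enzymes and the receptors both lay below the replicate 2 median of all tested probes, 0.105. The fibril-binding proteoglycans (8 tested, 0 at that p) had medians of 0.02, 0.38 and -0.05, and the median of replicate 2 was above 0 under each normalization (0.21 with loess, 0.52 with median centring). Decorin (Dcn) was at 0.21, 0.26 and -0.03 and lumican (Lum) at -0.32, 0.51 and -0.06. Below 0 on replicate 2 were 3 of the 8, which were Bgn (-0.77), Prelp (-0.69) and Fmod (-0.55).

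Breakdown enzymes and inhibitors (10 tested) had medians of 0.05, 0.10 and -0.12, with 4 genes at an unadjusted p under 0.05, 2 in each direction, where 1.55% (Cy5) and 1.52% (Cy3) of all tested probes were. The 1.2-fold selection took the 2 genes brighter in Cy3, against 0.51% of all tested probes in that direction. Mmp14, a membrane-bound collagenase, had ratios of -0.73, -1.09 and -0.43, and Mmp13, a secreted collagenase, had -0.48, -0.52 and -0.70. Brighter in Cy5 were Timp3, an inhibitor of metalloproteinases, at 1.55, 0.69 and -0.04, and Ctsk, the protease cathepsin K, at 1.04, 0.10 and 0.83. Mmp14 and Mmp13 thus kept their sign on every array, as did Ctsk.

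Marker lists of the cell types in the samples were read the same way, and their part in the collagen pattern was not tested. No marker passed limma at an adjusted p of 0.05. Fibroblast markers (6 of 6 tested) had medians of 0.28, -0.0024 and -0.13, and 3 of 6 were below 0 on replicate 2, where 12 of the 13 interstitial and vascular collagens were; Dcn and Lum belong to the proteoglycan list too, and Ddr2 to the receptors. Their summed signal ranged from 103319 to 140038 in Cy3 and from 99475 to 168039 in Cy5. Endothelial markers (6 of 6) had 0.03, -0.40 and -0.25, with sums of 40880 to 56270 in Cy3 and 33849 to 51632 in Cy5. Smooth muscle and pericyte markers (6 of 6) had 0.12, -0.41 and 0.52, with sums of 41726 to 58994 and 41107 to 61989. Cardiomyocyte markers (6 of 6, of which 4 had saturated spots) had 0.07, -0.52 and -0.33, with sums of 618451 to 1013590 and 581928 to 743505. Of these 6 markers, the selection took 2 as brighter in Cy3 (0.51% of all tested probes), Nppa (-0.89, -0.61, -0.82) and the troponin gene Tnnt2 (-0.81, -0.48, -0.51), which had saturated spots. The fibroblast median on replicate 2 was -0.0089 with loess and 0.31 with median centring. Endothelial and cardiomyocyte medians were below 0 there under each normalization, whereas the mural median was 0.13 with median centring, where all tested probes had 0.105.

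The remaining marker lists were read too, and their names do not mean that a signal came from that tissue or cell type alone. The fat markers (4 of 5 tested) had medians of 0.99, -0.50 and -1.02, against 0.24, -0.03 and -0.30 with loess, and Adipoq and Plin1 were not well above background in every channel and Fabp4 had saturated spots. Epicardial and mesothelial markers (3 of 4 tested) had medians of -1.28, -1.75 and -0.84, against -0.17, -0.11 and -0.11 with loess. Msln (-1.43, -1.75, -1.15) and Upk3b (-1.28, -1.96, -0.84), the latter not well above background in every channel, were selected as brighter in Cy3, as were 0.51% of all tested probes. Wt1 was at 0.32, -0.23 and -0.23. Cartilage markers (3 of 6 tested) had -0.07, -0.43 and -0.53, against -0.07, -0.03 and -0.13 with loess, with sums of 585 to 1098 in Cy3 and 347 to 575 in Cy5. Comp and Acan were well above background in every channel, Cnmd (Lect1 on the array) was not, and Matn1, Matn3 and Hapln1 were below the minimum signal. Skeletal muscle markers (6 of 6, of which 1 had saturated spots) had -0.01, -0.0047 and 0.17, red blood cell markers (4 of 4, of which 2 had saturated spots) 0.54, 0.78 and -0.17, and macrophage markers (4 of 4) -0.02, 0.12 and -0.16.

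**Figure D4:**
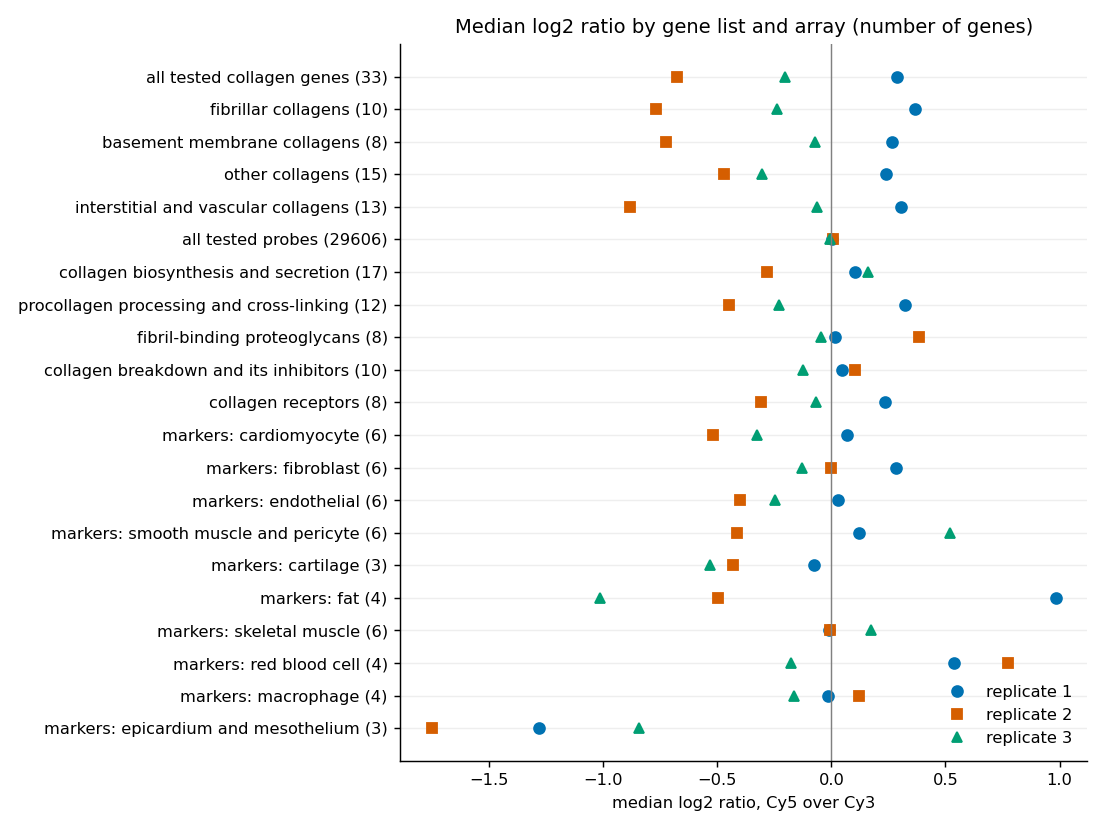
Median log2 ratio (x axis) of each gene list (rows, with the number of genes or probes) on replicates 1, 2 and 3 as circle, square and triangle. The interstitial and vascular collagens lie at 0.31, -0.88 and -0.06 and the fibroblast markers at 0.28, -0.0024 and -0.13.

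The course of the collagens held in part under other dye normalizations. With normexp background correction and loess, the collagen medians were 0.26, -0.28 and -0.10 and those of the interstitial and vascular genes 0.31, -0.65 and -0.11, with 12 of 13 genes below 0 on replicate 2. With normexp and median centring, all tested probes shifted to medians of 0.11, 0.11 and 0.20, the 33 collagen genes stood at 0.48, -0.10 and 0.17 with 21 below 0 on replicate 2, and the interstitial and vascular genes stood at 0.65, -0.39 and 0.43. Replicate 2 was the lowest array for these genes under each of these normalizations, whereas replicate 3 changed sign. Before any normalization, the mean signals gave collagen medians of 0.90, -0.21 and 0.15, where all tested probes had 0.52, 0.29 and 0.32.

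**Figure D5:**
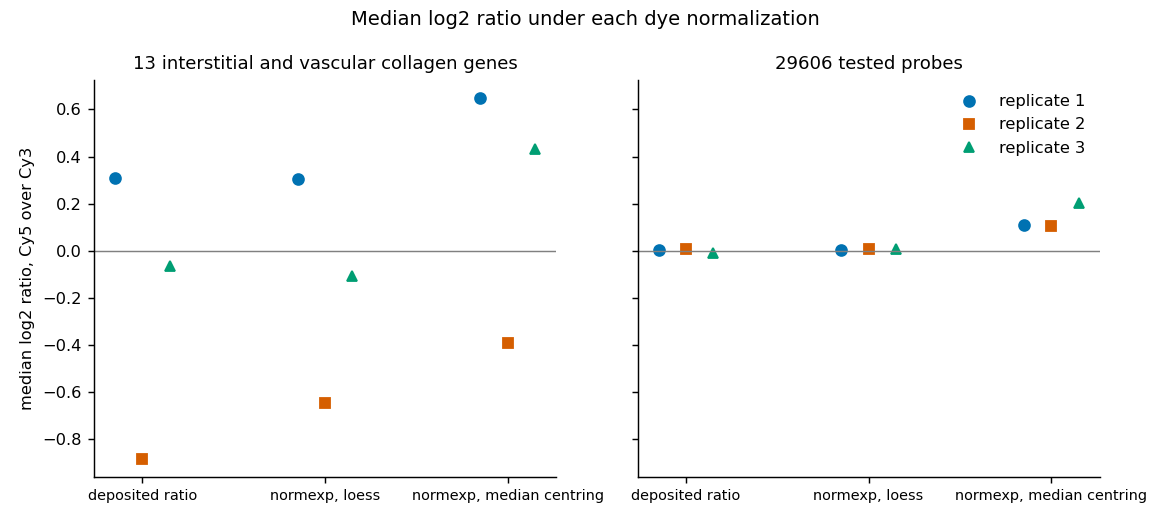
Median log2 ratio (y axis) of the 13 interstitial and vascular collagen genes (left) and of the 29606 tested probes (right) under each dye normalization (x axis), with circle, square and triangle for replicates 1, 2 and 3. Replicate 2 is lowest on the left throughout, at -0.88, -0.65 and -0.39.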

How the data were processed

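RNA of pooled adult hearts was hybridized to 3 two-colour arrays, and the authors deposited the Agilent Feature Extraction output of each. Deposited intensity columns hold mean and background signals, unnormalized, and processed signals, with local background subtracted, trends removed and the dyes normalized within the array by a linear and lowess step. The deposited log10 ratio is Cy5 over Cy3 of the processed signals, and the deposited p-value is that of a spot on an array. The series table of the authors held the same log10 ratios (equal within 1e-06 at each of 45017, 45018 and 45018 features) and was not used further.

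Ratios were put on the log2 scale, spots called outliers (11, 21 and 4 on replicates 1, 2 and 3) were dropped, and repeated spots gave 1 mean per probe. Probes with a geometric mean processed signal of at least 20 over both channels and all arrays (29606) were fitted with an intercept in limma 3.58.1 (R 4.3.3), using eBayes with the trend option; p-values were two-sided and adjusted over these probes by Benjamini-Hochberg. The fit was tested on simulated data. The 1.2-fold change on all arrays and the value of the signal minimum follow the study's selection. Here the minimum was applied to the mean over channels and arrays, so single signals may lie below it. Its p-value came from the EDGE software, and the array p on every array was chosen here in its place. Current symbols were taken by RefSeq accession for 64 of the 82 members. The number of arrays limits the precision.

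Genes named were those called or selected, the heart interstitial and vascular collagens, up to 5 genes each way with the largest mean ratio of constant sign, genes whose probes disagree, and list genes called or selected; others were chosen after their values were seen. Members and lists were chosen with earlier results of these data known. Alternatives were normexp (offset 50) with loess or median centring, leaving out each array, saturated or dim probes, no signal minimum, no trend, the methods' t-test, other p-values in the selection, the mean over probes, and type IV alone as basement membrane collagens. The channel levels and the medians by array under other normalizations were added after the data had been seen. Proteins of the members were not used here.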

Additional observations from a re-analysis of the deposited data

How the results depend on the processing

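Calls among the collagens depended on which arrays were used. Leaving out each array in turn gave 0 to 1 limma calls brighter in Cy5 and 0 to 1 brighter in Cy3. Among all 29606 tested probes 0 to 411 and 0 to 134 were called. The selection then took 1 to 3 collagen probes brighter in Cy5 and 0 to 4 brighter in Cy3, since fewer arrays had to pass. Among all tested probes it took 574 to 1170 in Cy5 and 439 to 665 in Cy3. With fold change alone the selection took 2 collagen probes brighter in Cy3 (Col27a1 and Col7a1), and with the p of limma it took 1 (Col27a1). At these settings 577 and 330 of all tested probes were taken as brighter in Cy3. Every other setting gave 0 calls, as in the report. The mean of Col7a1 became 0.033 and that of Col9a2 0.12 under normexp with median centring, where 17 of the 24 collagen genes with a mean below 0 turned above 0 and which moved the median of all tested probes by 0.15. Collagen probes of constant sign numbered 3 and 10 (Cy5 and Cy3) with normexp and loess, where 16.7% and 15.3% of all tested probes were so, and 7 and 6 with median centring, where 41.2% and 11.6% were, against 1 and 5; the cause was not tested. The collagen median of -0.17 ranged from -0.41 to 0.01 as each array was left out, and was 0.14 under median centring, less than the SD of 0.48 between arrays. The ratio of an array already pairs its 2 pools, so the fit of the ratios is the paired analysis, and no replicate block could be added to it.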
